A study of Mus musculus with 151 samples.

Results

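Hair cells turn sound into current at the tips of their stereocilia, and the genes described here are 8 that build, deliver or accompany the channel that does so: *Tmc1*, *Tmc2*, *Tmie*, *Lhfpl5*, *Cib2*, *Tomt*, *Loxhd1* and *Piezo2*. The list is one of names and functions, no threshold on a measured value enters it, and all 8 were found by symbol among the 55291 genes of the count table. Their levels were followed in single cochlear cells, which comprised 55 inner hair cells at postnatal day 14 (P14_WT IHCs), 46 induced outer hair cells of the same age (P14_iOHCs) and 50 inner hair cells at postnatal day 30 (P30_WT IHCs). All were C57BL/6 mice. The wild-type cells came from vGlut3-P2A-iCreER/+; Ai9/+ animals, so that the controls carried the Cre knock-in at *Slc17a8*, which encodes the IHC glutamate transporter vGlut3, and the Tdtomato reporter as well. The P14_iOHCs came from vGlut3-P2A-iCreER/+; Tbx2 flox/-; Ai9/+ animals, in which tamoxifen after birth activates Cre in cells that express *Slc17a8*, and 1 allele of *Tbx2* is mutant from the start. Tamoxifen was also given after birth to the wild-type animals of the P30 cells, and is not stated separately for those of the P14 cells. The fluorescent cells were picked by hand, and in the mutant only the smaller cells were taken, so the P14_iOHCs are a choice by size among the reporter-positive cells. Each library is 1 cell, amplified with a Smart-Seq HT kit and counted per gene.

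When sound bends the bundle, tip links made of *Cdh23* and *Pcdh15* protein pull on a channel at the lower end of each link. TMC1 and TMC2 form its pore. TMC2 serves mostly in immature cochlear hair cells and TMC1 in mature ones. TMIE, LHFPL5 and CIB2 bind the channel and are needed for its current, TOMT is needed for the TMC proteins to reach the bundle, and loss of LOXHD1, a protein of the stereocilia membrane, causes deafness. PIEZO2 is a separate stretch-activated channel that carries the reverse-polarity current of young hair cells.

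The labels tie no cell to an animal, and how many mice gave the cells is not given in the sources used here. A group therefore counts as 1 sample made of many cells, and no test was run and no p-value is given. The level of a gene in a group is its summed count over the summed total of the group's cells, times 1000000 (pooled CPM). The spread is given as the lowest, the median and the highest cell. A difference is the log2 ratio of pooled CPM with a 95% exact interval that covers counting error only. The reads carry no molecular identifiers and the interval holds nothing of the variation between cells or mice. A further description is the share of all pairs of cells, 1 from each group, in which the first group's cell was the higher, with ties counted equally to both sides, so that 50% means no order. Both comparisons, of P14_iOHCs and of P30_WT IHCs, use the same 55 P14_WT IHCs.

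Totals of counts per cell lay between 4326416 and 25035444, with group medians of 15633949 in P14_WT IHCs, 16259204 in P14_iOHCs and 13835982.5 in P30_WT IHCs. A count of 3 in 1 cell stood for 0.120 to 0.693 CPM. The totals left a gap between 10267217 and 11814928 that put 51 cells in a lower and 100 in an upper set. The lower set held 16 of 55 P14_WT IHCs, 12 of 46 P14_iOHCs and 23 of 50 P30_WT IHCs. In both wild-type groups it was made of the cells with the lowest label numbers. Depth and whatever the numbering follows therefore cannot be told apart in these sets. *Tbx2*, the targeted gene, had a pooled level of 247 CPM in P14_WT IHCs (49.5, 240 and 754 CPM in the lowest, median and highest cell) and of 66.5 CPM in P14_iOHCs (0, 41.4 and 427 CPM), and 27 of the 46 P14_iOHCs lay below every P14_WT IHC. Counts per gene do not show whether a transcript lacks the deleted exon. The labels were checked against markers. *Slc26a5*, which encodes the OHC motor Prestin, was counted in 46 of 46 P14_iOHCs and in 2 of 55 P14_WT IHCs and 2 of 50 P30_WT IHCs, and every wild-type cell held *Otof* and *Slc17a8*, the IHC genes of transmitter release. Of the 46 P14_iOHCs, 44 lay below every P14_WT IHC in *Otof* and 43 in *Slc17a8*. No libraries within a group were identical.

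*Tmc1* (chr19:20783458-20954202, minus strand, GRCm38), the pore gene of mature hair cells, was counted in every cell. Its level was 92.8, 509 and 1235 CPM in the lowest, median and highest of the P14_WT IHCs. The corresponding values were 173, 697 and 1858 CPM in P14_iOHCs. They were 11.5, 439 and 957 CPM in P30_WT IHCs. The P14_iOHCs thus reached higher and the groups overlapped widely: 3 of 46 P14_iOHCs lay above every P14_WT IHC and none below. Pooled *Tmc1* was 699 CPM in P14_iOHCs and 488 CPM in P14_WT IHCs, a log2 ratio of 0.52 (0.51 to 0.52), and the P14_iOHC was the higher cell in 68.0% of pairs. At P30 the pooled level was 468 CPM, a log2 ratio of -0.06 (-0.07 to -0.05) with 45.5% of pairs higher. The sign of the age difference depended on the cells and the scaling, since it was -0.54 in the lower set of totals, 0.06 in the upper set and 0.22 with the size factors of DESeq2, which moved the median of all genes from -0.01 to 0.28.

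*Tmc2* (chr2:130195194-130264445, plus strand), the pore gene of immature hair cells, was absent from most libraries. It had a count in 3 of 55 P14_WT IHCs (5.45%, exact 95% interval 1.14 to 15.1%), in 1 of 46 P14_iOHCs (2.17%, 0.0550 to 11.5%) and in 0 of 50 P30_WT IHCs. The interval for 0 of 50 reaches 7.11%, and the one-sided limit of 3 cells gives a share of up to 6% of cells with a count. In these few cells it was not always scarce. P14_WT IHC 3 held 580 counts (64.5 CPM), P14_WT IHC 15 held 349 counts (39.97 CPM) and P14_WT IHC 4 held 9 counts. The only P14_iOHC, number 30, held 348 counts (16.8 CPM). All 4 cells held *Tmc1* as well, at 225 to 867 CPM. The pooled *Tmc2* level of 1.19 CPM in P14_WT IHCs and 0.491 CPM in P14_iOHCs therefore rests on single cells, and no fold is read from it.

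**Figure D1:**
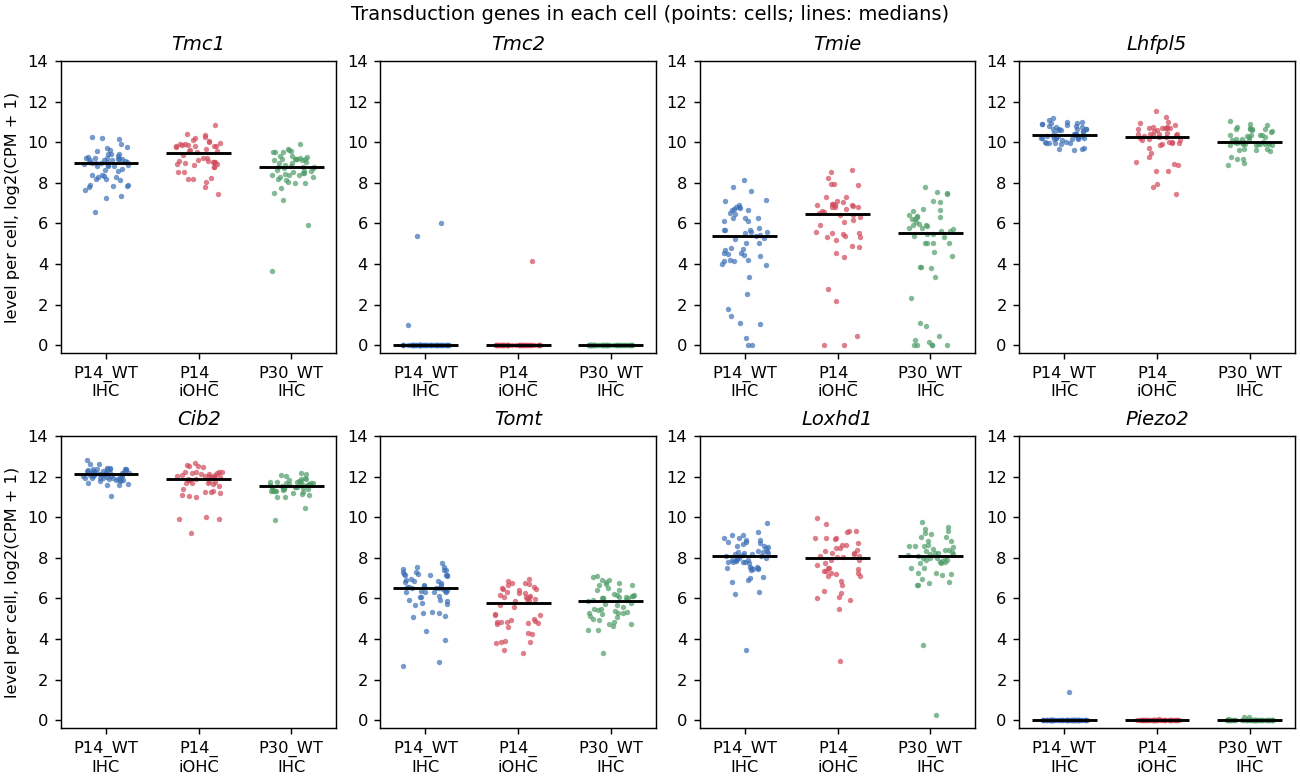
Level of each of the 8 genes in each cell, as log2(CPM + 1), for 55 P14_WT IHCs, 46 P14_iOHCs and 50 P30_WT IHCs; each point is a cell and each line a median. *Tmc1*, *Lhfpl5*, *Cib2*, *Tomt* and *Loxhd1* had counts in all cells of the 3 groups, *Tmie* in most, and *Tmc2* and *Piezo2* lay at 0 in nearly all.

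*Tmie* (chr9:110865711-110880113, minus strand) encodes a small membrane subunit of the channel. It had the widest spread among the 6 members counted in most cells. It was counted in 53 of 55 P14_WT IHCs, 44 of 46 P14_iOHCs and 45 of 50 P30_WT IHCs. P14_WT IHCs held 0, 40.1 and 284 CPM in the lowest, median and highest cell. P14_iOHCs held 0, 87.3 and 394 CPM, and P30_WT IHCs 0, 45.8 and 224 CPM. The SD over cells was 102%, 89.2% and 97.8% of the mean in these groups. Among the 6 members *Tmie* was also, by the pooled log2 ratio, the gene most above the P14_WT IHCs in P14_iOHCs. The pooled levels were 102 and 58.6 CPM and the log2 ratio 0.79 (0.78 to 0.81). For *Tmie* 67.4% of pairs were higher, just below the 68.0% of *Tmc1*. Only 3 P14_iOHCs lay above every P14_WT IHC. The pooled level of 56.6 CPM in P30_WT IHCs gave a log2 ratio of -0.05 (-0.07 to -0.03) against P14. This difference was negative in 8 of 11 alternatives, down to -0.37 in the lower set of totals and -0.61 on log2(CPM + 0.1), and turned to 0.05 in the upper set. It turned to 0.01 with TMM scaling and to 0.23 with the size factors of DESeq2 as well, both of which moved the median of all genes by as much.

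All 9 cells without a *Tmie* count held *Tmc1*. It was at 492 and 751 CPM in the 2 such P14_WT IHCs, at 297 and 804 CPM in the 2 P14_iOHCs, 1 far below and 1 above their median, and between 423 and 743 CPM in the 5 P30_WT IHCs. Both P14_WT IHCs, neither P14_iOHC and 2 of the 5 P30_WT IHCs were in the lower set of totals, and the totals of these cells were 4487167 to 8731942, 16366320 to 20831934 and 8129337 to 21467959 counts. When every cell was thinned to 4000000 counts, *Tmie* was left in 52, 44 and 44 cells of P14_WT IHCs, P14_iOHCs and P30_WT IHCs. The part of depth in the missing *Tmie* was not tested beyond these values.

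*Lhfpl5* (chr17:28575641-28585679, plus strand) encodes the tetraspan partner of the tip-link protein PCDH15 and was abundant in all 3 groups. Its lowest, median and highest values were 792, 1329 and 2321 CPM in P14_WT IHCs. They were 175, 1241 and 2968 CPM in P14_iOHCs and 465, 1044 and 2116 CPM in P30_WT IHCs. The P14_iOHCs spread beyond the wild-type cells on both sides, with 10 below and 2 above every P14_WT IHC. The SD was 47.4% of the mean there and 26.8% in P14_WT IHCs. Pooled levels were 1199 and 1397 CPM, a log2 ratio of -0.22 (-0.22 to -0.22) with 41.1% of pairs higher, which turned to 0.03 without the 16 P14_iOHCs described further on that were rich in supporting-cell markers. At P30 the pooled level was 1097 CPM and the log2 ratio -0.35 (-0.35 to -0.34), with 30.2% of pairs higher.

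*Cib2* (chr9:54544794-54560218, minus strand), which encodes a calcium-binding subunit, was the most abundant of the 8 genes in all 3 groups. P14_WT IHCs held 2139, 4426 and 7303 CPM in the lowest, median and highest cell, with an SD of only 19.9% of the mean. P14_iOHCs held 597, 3776 and 6440 CPM, and 6 of them lay below every P14_WT IHC. P30_WT IHCs held 920, 2980 and 4601 CPM. Of the 6 genes and both comparisons, *Cib2* at P30 had the share of pairs farthest from 50%: the P30 cell was the higher in 8.51% of pairs, and 2 of 50 P30_WT IHCs lay above the P14_WT IHC median. The pooled log2 ratio at P30 was -0.52 (-0.53 to -0.52), from 4445 to 3090 CPM, and stayed negative in all 11 alternatives tried, between -0.80 and -0.24. In P14_iOHCs the pooled level was 3532 CPM, a log2 ratio of -0.33 (-0.33 to -0.33) with 31.4% of pairs higher, which was -0.10 without the same 16 P14_iOHCs.

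*Tomt* (chr7:101898370-101906359, minus strand) encodes a methyltransferase-like protein of the secretory pathway that the TMC proteins need to reach the bundle. It was counted in every cell. P14_WT IHCs held 5.35, 91.8 and 216 CPM in the lowest, median and highest cell. P14_iOHCs held 9.07, 53.7 and 124 CPM and P30_WT IHCs 8.89, 58.2 and 135 CPM. In both comparisons the P14_WT IHC was the higher cell in most pairs and the ranges overlapped throughout, with no cell of either other group outside the P14_WT IHC range. By the pooled log2 ratio *Tomt* was the member most below P14_WT IHCs in both. At P30 *Cib2* was lower than *Tomt* by the share of pairs, on log2(CPM + 1) (-0.60 against -0.56) and in the lower set of totals. It was also lower than *Tomt* on log2(CPM + 0.1), where *Tmie* was the lowest member (-0.61). The log2 ratio of *Tomt* was -0.85 (-0.87 to -0.83) in P14_iOHCs, from 105 to 58.0 CPM, with 25.1% of pairs higher. It was -0.65 (-0.67 to -0.63) at P30, where the pooled level was 66.8 CPM, with 28.5% of pairs higher.

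Both *Tomt* differences depended on the set of totals. Within the lower set of totals they were -0.43 in P14_iOHCs and -0.08 at P30, and within the upper set -0.90 and -0.64. Across cells, Spearman's rho of *Tomt* with the total count was 0.52 in 55 P14_WT IHCs, 0.28 in 46 P14_iOHCs and 0.40 in 50 P30_WT IHCs. In both wild-type groups the lower set was made of the cells with the lowest label numbers. Neither the sets nor rho can there tell depth from whatever the numbering follows. After every cell was thinned to the same total, the differences were -0.83 in P14_iOHCs and -0.64 at P30. Without thinning they were -0.85 and -0.65. The part of depth in the *Tomt* differences was not tested beyond these values. The gene also overlaps another one. Of its 2857 exonic bases, 1981 are shared with *Anapc15*, a gene of the anaphase-promoting complex on the opposite strand. The Smart-Seq HT kit does not mark strand, so reads from the shared stretch cannot be told apart and the level of *Tomt* is uncertain. *Anapc15* itself, looked up after this overlap was seen, had pooled levels of 14.0, 8.44 and 7.75 CPM in P14_WT IHCs, P14_iOHCs and P30_WT IHCs. *Tmie* and *Cib2* share far fewer exonic bases with opposite-strand genes, 244 with *Als2cl* and 227 with *Sh2d7*, whose pooled levels were 0.894 to 6.96 CPM and 0.0305 to 1.34 CPM.

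*Loxhd1* (chr18:77281958-77442930, plus strand) encodes a protein of PLAT domains along the stereocilia membrane. The gene had a count in every cell and no stable difference between groups. Its lowest, median and highest values were 9.83, 272 and 830 CPM in P14_WT IHCs. They were 6.67, 251 and 1012 CPM in P14_iOHCs and 0.212, 277 and 873 CPM in P30_WT IHCs. In P14_iOHCs 1 cell lay above and 1 below all P14_WT IHCs, and the same held for the P30_WT IHCs. The pooled levels of 273, 275 and 312 CPM in P14_WT IHCs, P14_iOHCs and P30_WT IHCs gave log2 ratios of 0.01 (0.01 to 0.02) and 0.19 (0.19 to 0.20). The difference of the P14_iOHCs kept its sign in 6 of 12 alternatives, between -0.22 and 0.34, and that of the P30_WT IHCs in 8 of 11, between -0.49 and 0.48.

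*Piezo2* (chr18:63010213-63387183, minus strand) was at the limit of detection. In 1 P14_WT IHC it held 7 counts, and single counts occurred in 1 P14_iOHC and 3 P30_WT IHCs. Pooled levels were 0.00885, 0.00141 and 0.00458 CPM in P14_WT IHCs, P14_iOHCs and P30_WT IHCs. After thinning to 4000000 counts per cell it was left in 1 cell of all. In a single cell an expression below about 1 count could not be seen at this depth, and no difference is read from these values.

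A single cell stood low for several members. The library P30_WT IHC 11 had the lowest *Tmc1* (11.5 CPM), the lowest *Tomt* (8.89 CPM) and the lowest *Loxhd1* (0.212 CPM) of its group, with a total of 9445755 counts, 7110 genes with a count and 6.69% of counts on mitochondrial genes. It is 1 of 50 cells, and the pooled levels given here include it.

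Levels of different genes were compared per length, as TPM computed from the counts and the merged exon lengths of GENCODE M21. The order at the top was the same in all 3 groups. *Cib2* was first, with median TPM of 7537 in P14_WT IHCs, 5926 in P14_iOHCs and 4919 in P30_WT IHCs. *Lhfpl5* followed with 1355, 1139 and 1026 TPM, and *Tmc1* with 177, 207 and 144 TPM. *Cib2* exceeded *Lhfpl5* in every cell, and *Lhfpl5* exceeded *Tmc1* in 55 of 55 P14_WT IHCs, 44 of 46 P14_iOHCs and 50 of 50 P30_WT IHCs. By this measure the mRNAs of these auxiliary subunits were above that of the pore gene, and the order was the same in pooled CPM. The size of the gap is less certain. It rests on merged exon lengths of 1433 bases for *Cib2*, 2388 for *Lhfpl5* and 7190 for *Tmc1*, which join all annotated transcripts of a gene.

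The lower places were less firm. That of *Tomt* is uncertain, since its TPM divides by all 2857 exonic bases, of which 1981 overlap *Anapc15*. In P14_WT IHCs *Tomt* (79.9 TPM) and *Loxhd1* (76.3 TPM) were not separated, with *Tomt* the higher in 31 of 55 cells, and *Tmie* was the last of the 6 with 32.1 TPM. In P14_iOHCs *Tmie* (63.7 TPM) stood beside *Loxhd1* (59.7 TPM), with *Tmie* the higher in 26 of 46 cells, and *Tomt* was last with 40.1 TPM. In P30_WT IHCs the order was *Loxhd1* (72.4 TPM), *Tomt* (47.6 TPM) and *Tmie* (34.2 TPM), and *Tomt* exceeded *Tmie* in 30 of 50 cells. *Tmc2* and *Piezo2* had a median of 0 in all groups.

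**Figure D2:**
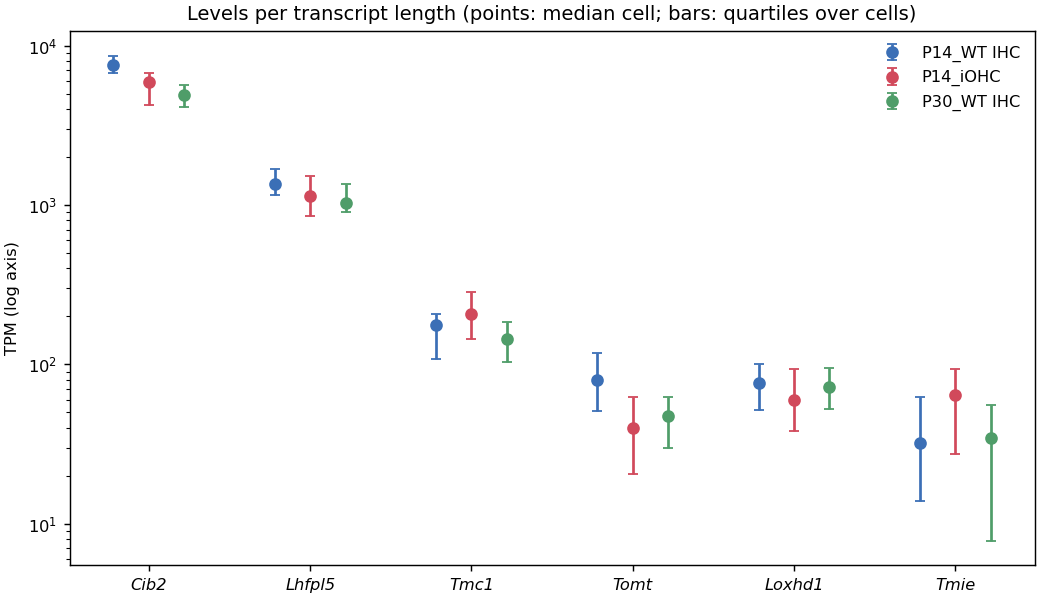
Median TPM over cells (log axis) of the 6 genes counted in most cells, with bars from the lower to the upper quartile over cells, in P14_WT IHCs, P14_iOHCs and P30_WT IHCs. *Cib2* and *Lhfpl5* lay above *Tmc1* in every group, and *Tmie* and *Tomt* changed places between P14_WT IHCs and P14_iOHCs. The level of *Tomt* is uncertain because its exons overlap those of *Anapc15*.

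The balance between the partners and the pore gene was examined within each cell. All the ratios share *Tmc1* as divisor, which was itself higher in P14_iOHCs (log2 ratio 0.52). They are therefore not separate results, and a lower ratio holds this difference as well. The TPM of *Cib2* over that of *Tmc1* had a median of 44 in P14_WT IHCs, 26.6 in P14_iOHCs and 32 in P30_WT IHCs. It was the higher in the P14_iOHC in 17.6% of pairs with a P14_WT IHC. For *Lhfpl5* the medians were 8.50, 5.22 and 8.06, with 24.4% of pairs higher in P14_iOHCs. For *Tomt* they were 0.431, 0.187 and 0.352, and 16.8% of pairs were higher in P14_iOHCs. The *Tomt* ratio exceeded 1 in 6 of 55 P14_WT IHCs and in 0 of 46 P14_iOHCs, and its size is as uncertain as the level of *Tomt*. *Tmie* went the other way, with medians of 0.184, 0.278 and 0.204 and 59.2% of pairs higher in P14_iOHCs. *Loxhd1* over *Tmc1* was 0.411, 0.269 and 0.484, with 30.7% of pairs higher in P14_iOHCs. In P30_WT IHCs the ratio was the higher in 31.8% of pairs for *Cib2*, 37.7% for *Tomt* and 43.2% for *Lhfpl5*. It was the higher in 49.9% for *Tmie* and 54.8% for *Loxhd1*.

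*Tmc1*, *Tmie*, *Lhfpl5*, *Cib2*, *Tomt* and *Loxhd1* were found together in single cells. All 6 had a count in 53 of 55 P14_WT IHCs (96.4%), 44 of 46 P14_iOHCs (95.7%) and 45 of 50 P30_WT IHCs (90%), and every cell short of the 6 lacked *Tmie*.

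The size of these differences was set beside that of all genes. A gene was compared where at least 5 counts were found in at least 10 of the cells of its 2 groups together, which 6 of the 8 members passed and *Tmc2* and *Piezo2* did not. In P14_iOHCs, 0 of the 6 were over 2-fold higher and 0 over 2-fold lower than in P14_WT IHCs, while of 13673 genes compared 19% were over 2-fold higher and 13% over 2-fold lower. The median log2 ratio over the 6 members was -0.10, and over all genes 0.09. At P30, 0 of the 6 were over 2-fold higher and 0 lower, where of 12946 genes 9.96% were higher and 10.9% lower. The median over the members was -0.20 and over all genes -0.01. With DESeq2 size factors the split of all genes at P30 went from 1289 higher and 1413 lower to 2057 higher and 951 lower. The median log2 ratio over the members went to 0.079. Shares of pairs were ranked among all genes too, whose median share was 50% in P14_iOHCs and 47.87% at P30. Several members lay far from the middle. In P14_iOHCs the percentile was 3.85 for *Tomt*, 7.07 for *Cib2*, 20.54 for *Lhfpl5*, 31.38 for *Loxhd1*, 91.95 for *Tmie* and 92.58 for *Tmc1*. At P30 it was 0.139 for *Cib2*, 3.14 for *Tomt*, 4.04 for *Lhfpl5*, 38.26 for *Tmc1*, 55.24 for *Tmie* and 69.64 for *Loxhd1*.

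**Figure D3:**
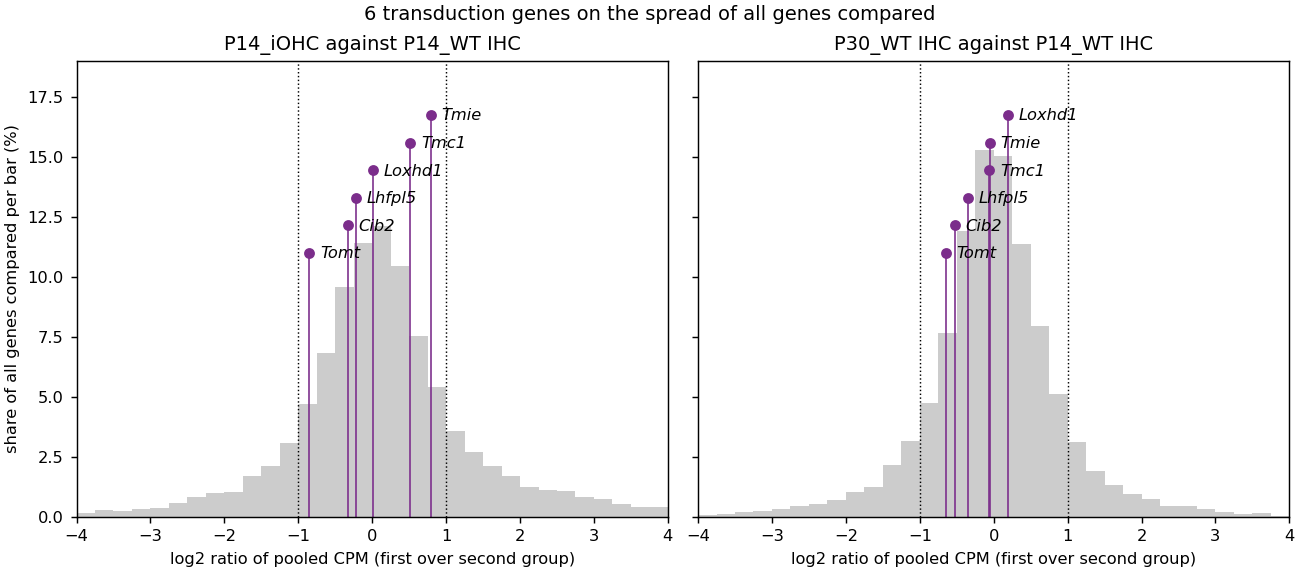
Distribution of the log2 ratio of pooled CPM over all genes compared (grey bars, share of genes in %, each bar 0.25 wide), with the 6 members that passed the count filter as labelled pins whose height has no meaning; dotted lines mark a 2-fold difference. All pins lie between the dotted lines, from *Tomt* at -0.85 to *Tmie* at 0.79 in P14_iOHCs and from *Tomt* at -0.65 to *Loxhd1* at 0.19 in P30_WT IHCs.

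*Tmc1*, *Tmie* and *Tomt* had the largest pooled log2 ratios in P14_iOHCs, in either direction, so the 250 bases before their RefSeq start sites are shown for a search of the letters that T-box factors such as TBX2 and basic helix-loop-helix factors are known to bind. The sequences are RefSeq promoters of GRCm38.p6, all on the minus strand, 5′ to 3′, at chr19:20954203-20954452 for *Tmc1*, chr9:110880074-110880323 for *Tmie* and chr7:101906360-101906609 for *Tomt*. Capitals mark matches on either strand to GGTGTGA, the core of the T-box site, and to CANNTG, the E-box.
Tmc1: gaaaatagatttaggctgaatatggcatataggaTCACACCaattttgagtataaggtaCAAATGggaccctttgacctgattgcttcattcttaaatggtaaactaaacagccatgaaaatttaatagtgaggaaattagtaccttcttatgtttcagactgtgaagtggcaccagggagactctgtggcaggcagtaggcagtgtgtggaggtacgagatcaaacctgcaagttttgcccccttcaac
Tmie: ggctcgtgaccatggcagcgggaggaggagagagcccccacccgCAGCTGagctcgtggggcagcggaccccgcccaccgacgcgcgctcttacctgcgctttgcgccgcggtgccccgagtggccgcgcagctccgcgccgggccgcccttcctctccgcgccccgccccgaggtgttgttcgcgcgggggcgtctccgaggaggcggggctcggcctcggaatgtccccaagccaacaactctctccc
Tomt: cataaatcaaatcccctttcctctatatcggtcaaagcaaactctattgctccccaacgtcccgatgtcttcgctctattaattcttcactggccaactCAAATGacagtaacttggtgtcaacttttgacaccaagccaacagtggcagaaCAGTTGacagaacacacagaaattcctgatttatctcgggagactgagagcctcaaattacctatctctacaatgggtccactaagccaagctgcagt

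*Tmc1* held 1 such T-box core, read on the opposite strand, and 1 E-box. *Tmie* held 1 E-box and *Tomt* 2, and neither held GGTGTGA. Of 32851 mouse promoters of the same length, 3.3% held GGTGTGA and 66.2% held CANNTG, so the E-box is a common match. The bases also differ in composition, with 41.2% G and C in *Tmc1*, 74.8% in *Tmie* and 44% in *Tomt*. These matches describe letters only. No binding was measured in these cells.

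In P14_iOHCs the markers of supporting cells, the non-sensory neighbours of hair cells, were counted at higher levels. Of 13 such markers 10 passed the filter and all 10 were over 2-fold higher than in P14_WT IHCs, with a median log2 ratio of 2.41 beside 0.09 over all genes. *S100a1*, 1 of these 10 (log2 ratio 2.06), was left out of the sum used here, since it was abundant in hair cells of every group. The sum of the other 12 markers, among them the gap junction genes *Gjb2* and *Gjb6* and the tectorial membrane gene *Tectb*, was 0.207, 828 and 10381 CPM in the lowest, median and highest P14_iOHC. It was 0, 2.12 and 2120 CPM in P14_WT IHCs and 0, 20.9 and 744 CPM in P30_WT IHCs. *Prox1* had no count in any P14 cell.

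Within the 46 P14_iOHCs, Spearman's rho with this sum was -0.62 for *Cib2*, -0.61 for *Tmc1*, -0.54 for *Loxhd1* and -0.49 for *Lhfpl5*, and -0.24 for both *Tmie* and *Tomt*. The points are cells that share their library's total as the divisor of both values. With the number of genes counted per cell, rho was -0.69 for *Cib2* and -0.56 for *Tmc1*. Without the 16 P14_iOHCs whose sum lay above every P14_WT IHC, a choice made after the data were seen, the log2 ratios against P14_WT IHCs were 0.77 for *Tmc1*, 0.87 for *Tmie*, 0.34 for *Loxhd1*, 0.03 for *Lhfpl5*, -0.10 for *Cib2* and -0.60 for *Tomt*. The median over the 6 members was then 0.19 in place of -0.10. The part of supporting-cell RNA in the members' differences was not tested beyond these values.

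**Figure D4:**
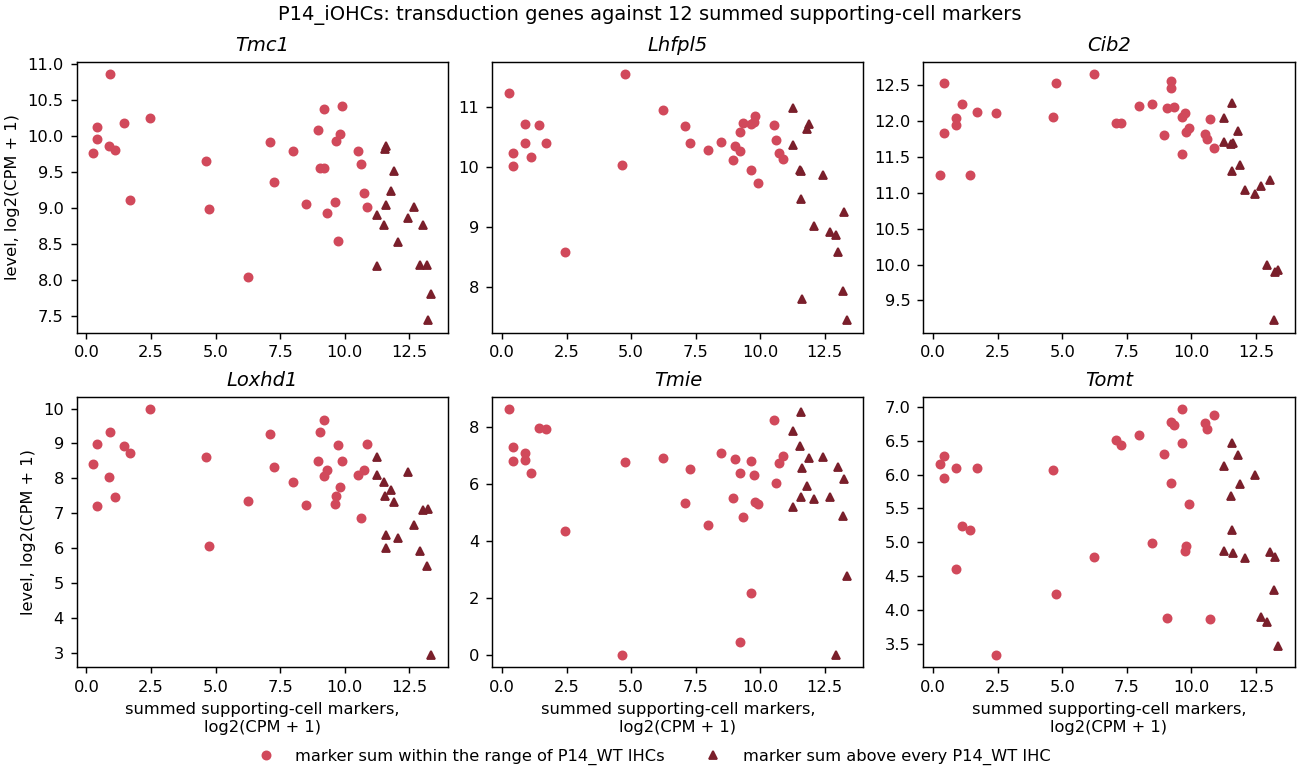
Level of 6 members against the summed level of 12 supporting-cell markers in 46 P14_iOHCs, both as log2(CPM + 1) and with an own vertical scale in each panel; each point is a cell and triangles mark the 16 cells above every P14_WT IHC in that sum. *Tmc1*, *Lhfpl5*, *Cib2* and *Loxhd1* are lowest among the triangles, with Spearman's rho of -0.61, -0.49, -0.62 and -0.54, while *Tmie* and *Tomt* both show -0.24.

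*Slc26a5*, the gene of the OHC motor, varied among the P14_iOHCs from 142 to 2787 CPM and its level ran in the same direction as that of the members. Spearman's rho over 46 cells was 0.51 for *Loxhd1*, 0.42 for *Lhfpl5*, 0.31 for *Tmc1*, 0.29 for *Tomt*, 0.27 for *Cib2* and 0.17 for *Tmie*. With the IHC gene *Slc17a8* it was 0.38 for *Cib2*, 0.20 for *Lhfpl5*, 0.16 for *Loxhd1*, 0.15 for *Tomt*, 0.09 for *Tmc1* and -0.13 for *Tmie*. Both genes and the members share the library's total as divisor, and the part of supporting-cell RNA in these values was not tested. With the remaining *Tbx2*, rho was between -0.37, for *Loxhd1*, and -0.09, for *Lhfpl5*. In the 55 P14_WT IHCs, rho with *Tbx2* was between -0.31, for *Tomt*, and 0.06, for *Cib2*.

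Among themselves the members were coupled weakly in wild-type cells. In P14_WT IHCs the pair with the highest rho was *Lhfpl5* and *Cib2* at 0.44, and the other 14 pairs lay between -0.22 and 0.25. In P30_WT IHCs the 15 pairs lay between -0.25 and 0.26, and *Lhfpl5* with *Cib2* was at 0.06. In P14_iOHCs all 15 pairs were positive, from 0.05 to 0.49, the highest being *Tmc1* with *Loxhd1*. These cells are also those in which the members ran against the sum of supporting-cell markers.

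The genes whose pattern over all cells was most like a member's, among genes counted in at least 50% of cells, were found by Spearman's rho of log2(CPM + 1), which holds group differences and depth as well as the variation within groups. *Lhfpl5* was nearest to another member, *Cib2* (0.46), and then to *Gltp* (0.44) and *Ndfip1* (0.43). *Cib2* had the highest values of all, with *Limd2* (0.66), *Pvalb* (0.63), the gene of the calcium buffer parvalbumin, and *Arf5* (0.58). The nearest to *Tmc1* were *Lmo7* (0.45), *Nf2* (0.44) and *Atp2b2* (0.44), the gene of the calcium pump of the hair bundle. *Loxhd1* was nearest to *Phf20l1* (0.42), followed by the tip-link gene *Cdh23* (0.34) and the stereocilia motor *Myo15* (0.33). For *Tomt* they were *Tecr* (0.53), *Tmem254c* (0.52) and *Ubb* (0.48), and for *Tmie* *Ccz1* (0.39), *Ing1* (0.34) and *Gprin2* (0.33). Within the groups many of these were weaker, such as *Cib2* with *Pvalb*, at 0.31 in P14_WT IHCs, 0.62 in P14_iOHCs and 0.22 in P30_WT IHCs.

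The tip link and its upper anchor were examined beside the channel. In P14_iOHCs, 1 of 6 genes was over 2-fold lower and 0 were over 2-fold higher, beside 13% and 19% of all genes, with a median log2 ratio of -0.33. The cadherins of the link, *Cdh23* and *Pcdh15*, had log2 ratios of -0.01 and -0.08. The gene past 2-fold was *Ush1c*, which encodes the scaffold harmonin at the upper end of the link, at 526 CPM in P14_iOHCs and 1063 CPM in P14_WT IHCs (log2 ratio -1.02, and -0.99 with TMM, within 2-fold), and 11 of 46 P14_iOHCs lay below every P14_WT IHC. At P30, 5 of the 6 passed the filter and none was past 2-fold, the nearest being the motor *Myo7a* at 711 against 364 CPM (0.96), which went past 2-fold with TMM (1.02) and with the size factors of DESeq2 (1.25).

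Among 16 other genes of the hair bundle, all of which passed the filter, 3 were over 2-fold higher and 5 over 2-fold lower in P14_iOHCs, beside 19% and 13% of all genes, with a median of -0.08. *Strc*, the gene of stereocilin, which forms the top connectors between OHC stereocilia, was at 167 against 24.5 CPM (2.77). *Pdzd7* (1.75) and the actin-capping gene *Eps8* (1.34) were also higher. *Whrn*, the gene of the tip scaffold whirlin, was at 14.9 against 226 CPM (-3.92), and *Myo3a*, a motor of stereocilia tips, at 24 against 259 CPM (-3.43). *Ptprq* (-1.74), *Pkhd1l1* (-1.37) and *Adgrv1* (-1.02) were lower as well. At P30, 1 of the 16 was over 2-fold lower, *Pdzd7* (-1.90), and 0 were higher, beside 10.9% and 9.96% of all genes, with a median of -0.01. With the size factors of DESeq2 *Eps8* was over 2-fold higher (1.13).

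**Figure D5:**
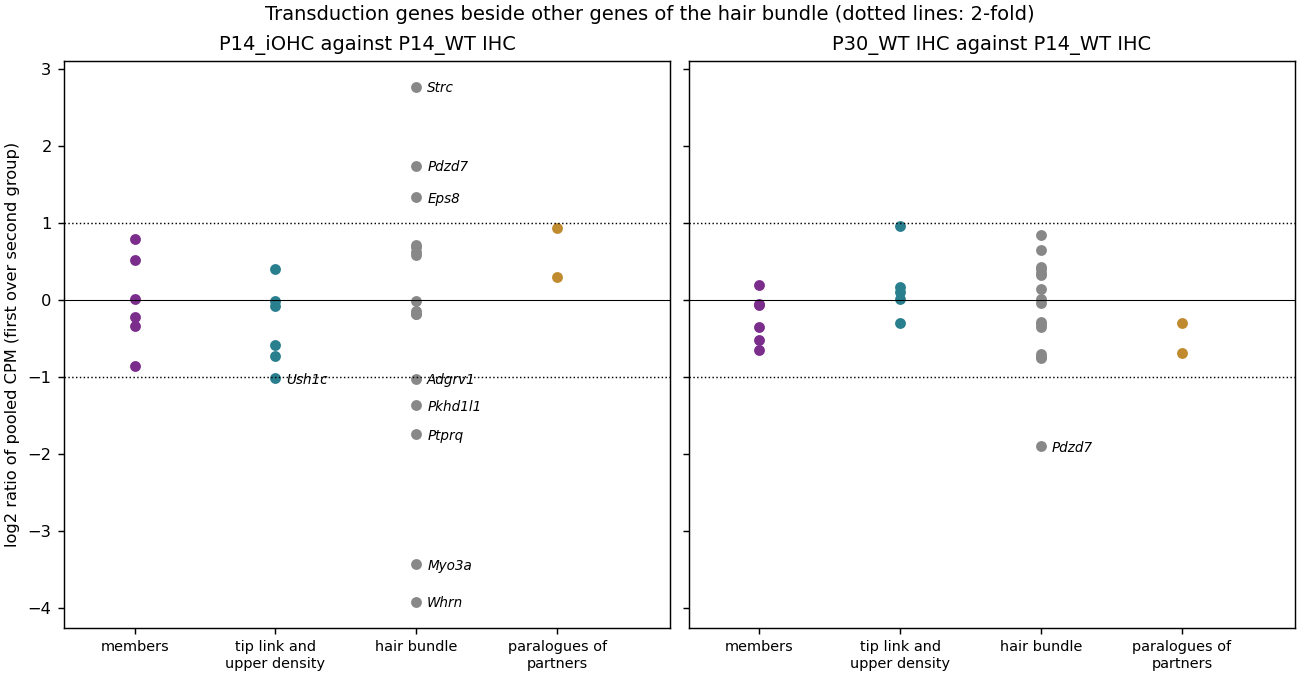
Log2 ratio of pooled CPM for the 6 members, the tip link and upper density genes, 16 other hair bundle genes and 2 paralogues of the members' partners that passed the count filter; each point is a gene, dotted lines mark a 2-fold difference and genes beyond it are named. In P14_iOHCs the members lie between -0.85 and 0.79, while hair bundle genes run from *Whrn* at -3.92 to *Strc* at 2.77.

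Few relatives of the members passed the filter. Of the other TMC genes, *Tmc3* to *Tmc8*, 1 of 6 passed the filter, *Tmc4*, at 1.73 CPM in P14_WT IHCs, 2.92 CPM in P14_iOHCs and 1.81 CPM in P30_WT IHCs. Of 9 paralogues of the partners, 2 passed, *Cib1* and *Lhfpl4*, and 0 were past 2-fold in either comparison. *Lhfpl4* was at 52.7 CPM in P14_iOHCs and 27.5 CPM in P14_WT IHCs (0.94), a wider ratio than that of any member, with 9 of 46 P14_iOHCs above every P14_WT IHC and 54.1% of pairs higher. *Piezo1* did not pass, with 0.0290 to 0.767 CPM.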

How the data were processed

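Cochlear cells were dissociated, picked by hand under a fluorescence microscope and amplified with a Smart-Seq HT kit. Paired-end reads were mapped by the authors to GRCm38 (mm10) with HISAT2 2.1.0, and they deposited raw counts per gene from HTSeq 0.10.0, whole numbers without normalization, for 55291 genes. The submitters' processing notes also name FastQC 0.11.9, Trimmomatic 0.39 and StringTie 1.3.5. Their annotation release, strand setting and handling of multiply mapped reads are not given in the sources used here.

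Cells were grouped by their labels. CPM is the count over the cell's total, times 1000000. TPM used merged exon lengths of GENCODE M21, found for 53292 genes. A gene entered a comparison where 10 or more of its cells held 5 or more counts, and a difference over 2-fold was counted, with 4-fold as an alternative. Intervals were exact binomial intervals at 95%, for shares of cells and, conditional on the sum of both counts, for ratios. Genes named outside the 8 members were *Tbx2*, those of the other lists over 2-fold with at least 10 pooled CPM in the higher group, the 3 nearest in pattern to each member, and others singled out where the text says so or as reference values of their lists. The members and lists were chosen with earlier results of these data known, and a few listed genes are not reported here and were left out of the lists' counts and sums. Alternatives were mean CPM, log2(CPM + 1), log2(CPM + 0.1), TMM (edgeR 4.0.16), size factors (DESeq2 1.42.0), totals without mitochondrial genes, subsets of cells and counts thinned to 4000000 with the seed 20260. The scripts were tested on simulated data. Python 3.11.15, numpy 2.4.6, scipy 1.17.1, pandas 2.3.3, matplotlib 3.10.9 and R 4.3.3 were used. The P30_WT OHCs and droplet data of other studies were not analysed here.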

Additional observations from a re-analysis of the deposited data

How the results depend on the processing

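In every alternative run, 0 of the 6 members were over 2-fold in either direction in either comparison, and 0 over 4-fold. The median log2 ratio over the members in P14_iOHCs, -0.10, became -0.29 as the mean difference of log2(CPM + 1) and -0.29 of log2(CPM + 0.1), -0.081 with TMM, -0.15 with the size factors of DESeq2, -0.18 in the lower and -0.081 in the upper set of totals, -0.054 without outlying cells (3 median absolute deviations in depth, genes or mitochondrial share), -0.11 after thinning and -0.28 without a filter (8 genes). It became 0.19 without the 16 P14_iOHCs rich in supporting-cell markers. At P30 the median, -0.20, became -0.23 with mean CPM, -0.33 and -0.44 on the 2 log scales, -0.15 with TMM, 0.079 with the size factors of DESeq2, -0.17 without mitochondrial genes, -0.43 in the lower set of totals, -0.19 without outlying cells, -0.22 after thinning and -0.35 without a filter (7 genes). TMM and the size factors moved the median of all genes by a like amount in both comparisons. Leaving out mitochondrial genes did so at P30, where the median of all genes went from -0.01 to 0.03. On the 2 log scales the median of all genes fell too, to -0.06 and -0.12 in P14_iOHCs and to -0.19 and -0.35 at P30. The cause of the other shifts was not tested.

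Over all genes, the number over 2-fold higher in P14_iOHCs went from 2596 to 1412 on log2(CPM + 1) and to 1261 in the lower set of totals, and the number lower from 1782 to 2987 on log2(CPM + 0.1). At P30 the number higher went from 1289 to 305 on log2(CPM + 1), 714 on log2(CPM + 0.1) and 2057 with the size factors of DESeq2, and the number lower from 1413 to 3105 on log2(CPM + 0.1).

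The split at the widest relative gap in totals gave no value for its lower part, which held 2 P14_WT IHCs only. The sets of totals used here, at the widest absolute gap, and the omission of the 16 cells were chosen after the data were seen. No paired analysis was possible because the numbers in the labels only name cells and no result comes from a test. Without replicate animals, nothing here measures the variation between mice. Thinning left *Piezo2* in 1 cell and took *Tmie* from 1 P14_WT IHC and 1 P30_WT IHC, while *Tmc2* was left in all of its cells.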

Other observations

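The wider marker lists describe the cells in which the transduction genes were measured. Of 11 hair cell genes, 3 were over 2-fold higher and 3 over 2-fold lower in P14_iOHCs, with a median log2 ratio of -0.09. Over all genes compared, 19% were higher and 13% lower in P14_iOHCs and 9.96% and 10.9% at P30, and the counts of all the lists given here stand beside these shares. The OHC genes *Slc26a5* (1107 against 0.140 CPM), *Ocm* (37560 against 743 CPM) and *Ikzf2* (294 against 0.00126 CPM) were higher, and *Calb2* (-2.92), *Otof* (-3.02) and *Slc17a8* (-3.42) lower. At P30, 1 of the 9 that passed was over 2-fold lower, *Pvalb* (-1.46), and 0 were higher, to which TMM and the size factors of DESeq2 added *Myo7a* (1.02 and 1.25).

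Markers of other cells were counted as well. Of the 4 genes of the neuronal list that passed, 0 were over 2-fold higher and 2 lower in P14_iOHCs, *Nefl* (-1.22) and *Nefm* (-1.59). Of 3 of the glial list 2 were higher, *Mbp* (3.70) and *Sox10* (51.4 against 2.56 CPM), which supporting cells also express. Of 5 of the fibroblast list 2 were higher, *Lum* (2.55) and *Dcn* (1.40), and 1 lower, *Pdgfra* (-1.12). Of 4 of the blood list 0 were higher and 2 lower, *Hba-a2* (-1.53) and *Hbb-bt* (-1.53), and of 3 of the immune list 1 was higher, *Csf1r* (2.18), and 1 lower, *C1qb* (0.127 against 24.9 CPM). At P30, with 8, 3, 1, 4, 4 and 3 genes passing in the order given, the supporting-cell list had 0 higher and 1 lower, *Tectb* (-2.26), the neuronal and glial lists had 0 either way, the fibroblast list 1 higher, *Coch* (1.22), the blood list 1 higher, *Hba-a2* (1.09), and 2 lower, *Hba-a1* (-2.19) and *Hbb-bs* (-2.56), and the immune list 1 higher, *Cd68* (1.38), and 1 lower, *C1qb* (-3.13). Pooled levels and cells did not always run the same way. The P30 cell was the higher in 58.7% of pairs for *Hba-a1*, 50.7% for *Hbb-bs* and 49.4% for *Coch*, and the P14_iOHC in 41.1% of pairs for *Csf1r*. With the size factors of DESeq2 *Csf1r* was over 2-fold higher at P30 too (1.22). *Mbp*, *Coch*, *Csf1r* and the globin genes were named after their values were seen, since they lay under 10 pooled CPM. *Prph* had no count in any P14_WT IHC or P30_WT IHC.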
